A study of Mus musculus with 4 samples.

Results

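The data described here compare the dorsomedial striatum (DMS) with the dorsolateral striatum (DLS) of wild-type mice. They comprise 22 of the 46 RNA-sequencing libraries of the study, chosen by label: all 11 libraries labelled wild-type DMS and all 11 labelled wild-type DLS. The mice were C57BL/6, aged 8 weeks, and the tissue was taken from frozen brains by laser capture, in which small areas of a section are cut out under a microscope. The remaining 24 libraries, 12 per region, came from Foxp2hum/hum mice of the same strain and age, which carry a humanised form of the transcription factor gene Foxp2 on both chromosomes; they are used here for the estimate of the spread and for a second measurement of the same regional contrast. No treatment is given in the labels for any group. The labels tie no library to an animal, so p-values measure the spread between libraries, which may in part be technical, and it is unknown whether a DMS and a DLS library share a mouse.

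The dorsal striatum is the input stage of the basal ganglia. Most of its neurons are GABAergic projection neurons that receive glutamatergic axons from cortex and thalamus and dopaminergic axons from the midbrain, and that carry either D1 receptors (direct pathway) or D2 receptors and adenosine receptors (indirect pathway). Its medial part receives mainly associative cortex and serves goal-directed action, whereas its lateral part receives sensorimotor cortex and serves habits. Medially the striatum borders the lateral ventricle, which is lined by ciliated ependymal cells and by the subventricular zone, where new neurons are born in the adult.

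Recovered totals per library ran from 18 to 34.8 M reads (median 23.8 M, M for mega) in wild-type DMS and from 16.8 to 41 M (median 20.4 M) in wild-type DLS. Values are read counts per gene divided by 1 size factor per library, called normalised reads below. The sources used here do not give how reads in overlapping genes were counted, so an overlapping gene is named, with its value as a percent of the gene's own, where that percent is 10 or more. Library 72 of DMS and library 70 of DLS stood apart from their groups, with median correlations of 0.937 and 0.948 to the other libraries of their group. Without these 2 libraries 3245 genes differed between the regions in place of 3377, 1608 higher and 1637 lower in DMS. Library 70 also held the highest Slc17a7 value, 783 normalised reads of a cortical glutamate transporter gene, against a DLS median of 133. Library 18 of DMS held 9582 normalised reads of the choroid plexus gene Ttr, against a DMS median of 40.8. Without libraries 70 and 72, the counts of calls changed in 24 of the 70 gene lists tested, by at most 2 members, and the count is given below where it moved by over 1.5 times.

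Both regional markers separated the libraries by label. Crym (ENSMUSG00000030905, chromosome 7, 127329894 to 127345625 on mm9), which encodes a thyroid hormone binding protein, ran from 2487 to 4073 (median 3355) normalised reads in DMS and from 151 to 410.3 (median 257) in DLS. Cnr1 (ENSMUSG00000044288, chromosome 4, 34011568 to 34035806), the CB1 cannabinoid receptor gene, ran from 1091 to 2532 (median 1524) in DMS and from 8362 to 17237 (median 12906) in DLS. In neither gene did any DMS library overlap any DLS library. The 16 markers shared by projection neurons were all measured in both regions, with summed levels of 185248 to 261418 (median 218483) normalised reads in DMS and 266318 to 341934 (median 306983) in DLS. The defining markers of neighbouring tissue were low but not at 0 in both regions: the summed level of 9 cortical excitatory markers was 240.2 to 783 (median 462) in DMS and 168 to 1374 (median 303) in DLS, and that of 6 septal markers 213 to 330.1 (median 270.3) and 212 to 448 (median 294).

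Of 19561 genes with a mean of at least 10 normalised reads over the 46 libraries, 3377 (17.3%) differed between DMS and DLS at a limma adjusted p under 0.05. Of these, 1671 (8.54%) were higher and 1706 (8.72%) lower in DMS, and the median log2 difference over all tested genes was 0.0067. Large differences were skewed to the DMS side, where 519 genes (2.65%) were more than 2-fold higher, compared with 223 (1.14%) more than 2-fold lower. In 182 genes (0.930%) every DMS library lay above every DLS library, and in 199 (1.02%) every DLS library lay above every DMS library. Each list below is to be read against these shares.

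**Figure D1:**
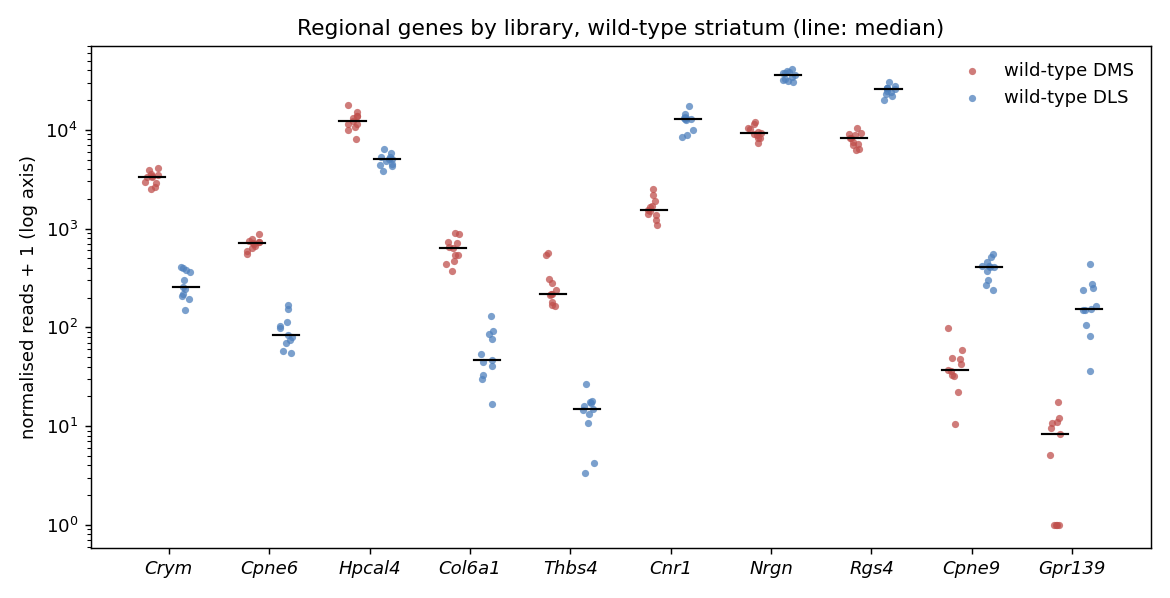
Normalised reads plus 1 (log axis) of 10 regional genes in each wild-type library, with DMS in red, DLS in blue and a line at the median. In these 10 genes the DMS and DLS libraries do not overlap, which was a condition for those chosen by size. Crym has medians of 3355 and 257 and Cnr1 of 1524 and 12906.

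The genes with the largest differences were drawn from different kinds of cell and molecule. Among those chosen by size on the DMS side, Ccdc153 (6.76), Thbs4 (4.38) and Ak7 (4.02) had larger log2 differences than Crym (3.59), and Mki67, Rsph1, Top2a and Igfbpl1 had larger ones than Cpne6. These genes of the ventricular wall, cilia and cell division are described further below, after the neuronal and matrix genes. Cpne6 (ENSMUSG00000022212, chromosome 14, 56129282 to 56136268), one of the copines, which bind membrane phospholipids when calcium rises, ran from 552 to 876 (median 717) normalised reads in DMS and from 54.5 to 169 (median 82.6) in DLS. Its log2 difference was 2.95 ± 0.14 (SE), with a limma adjusted p = 4.58e-22. Col6a1 (ENSMUSG00000001119, chromosome 10, 76171537 to 76188913), a chain of the beaded-filament collagen VI, ran from 373 to 894 (median 631) in DMS and from 15.9 to 131 (median 46.2) in DLS (log2 3.56 ± 0.23). The lowest DMS library of Col6a1 was above the highest DLS library.

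On the DLS side the leading gene was Gpr139 (ENSMUSG00000066197, chromosome 7, 126287837 to 126327888), an orphan receptor that responds to aromatic amino acids. It ran from 0 to 16.7 (median 7.40) normalised reads in DMS and from 35.4 to 434 (median 154) in DLS, a log2 difference of -5.16 ± 0.52 (limma adjusted p = 3.26e-11). Robo3 (ENSMUSG00000032128, chromosome 9, 37223254 to 37240760), a roundabout receptor of axon guidance, ran from 0 to 19 (median 4.41) in DMS and from 79.4 to 169.8 (median 144) in DLS (log2 -4.70 ± 0.37). In both genes the lowest DLS library exceeded the highest DMS library. Cpne9 (ENSMUSG00000030270, chromosome 6, 113232301 to 113255621), a copine like Cpne6, went the opposite way to it, from 9.43 to 98.2 (median 35.8) in DMS and from 239.5 to 549 (median 407) in DLS (log2 -3.37 ± 0.24). Lack of overlap in both copines was part of the rule by which they were chosen. Enzyme genes were prominent on this side: Aldh1a1, which makes retinoic acid, Me2, a mitochondrial malic enzyme, and Cyp2s1, a cytochrome P450, had log2 differences of -2.80 ± 0.14, -2.26 ± 0.12 and -2.57 ± 0.16. Ace, the angiotensin-converting enzyme gene, ran from 80.4 to 347 (median 127) in DMS and from 589 to 1353 (median 987) in DLS (log2 -2.82 ± 0.21), with Gm11651 overlapping it at 68.8% of its value. Secreted signalling proteins were represented by Chrdl1, an antagonist of bone morphogenetic proteins (log2 -2.31 ± 0.19), and Gdf10, a ligand of the same superfamily (log2 -2.14 ± 0.18).

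The direction of the difference went with the level of the gene under the deposited size factors, and less so after quantile normalisation. Among the 4298 genes with a mean of 10 to 50 normalised reads, 455 (10.6%) were higher and 2.86% lower in DMS. Among the 458 genes with a mean of 5000 or more, 19 (4.15%) were higher and 120 (26.2%) lower. When every library was given the same distribution of values by quantile normalisation, the low bin held 359 higher and 214 lower genes and the high bin 46 and 51. The median log2 difference of the high bin moved from -0.18 to -0.014, while the counts over all genes were 1625 higher and 1613 lower. Quantile normalisation changed the counts of calls in 44 of the 70 lists, and the split after it is given below where a count moved by over 1.5 times or the share of higher among all calls by over 10 percentage points.

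**Figure D2:**
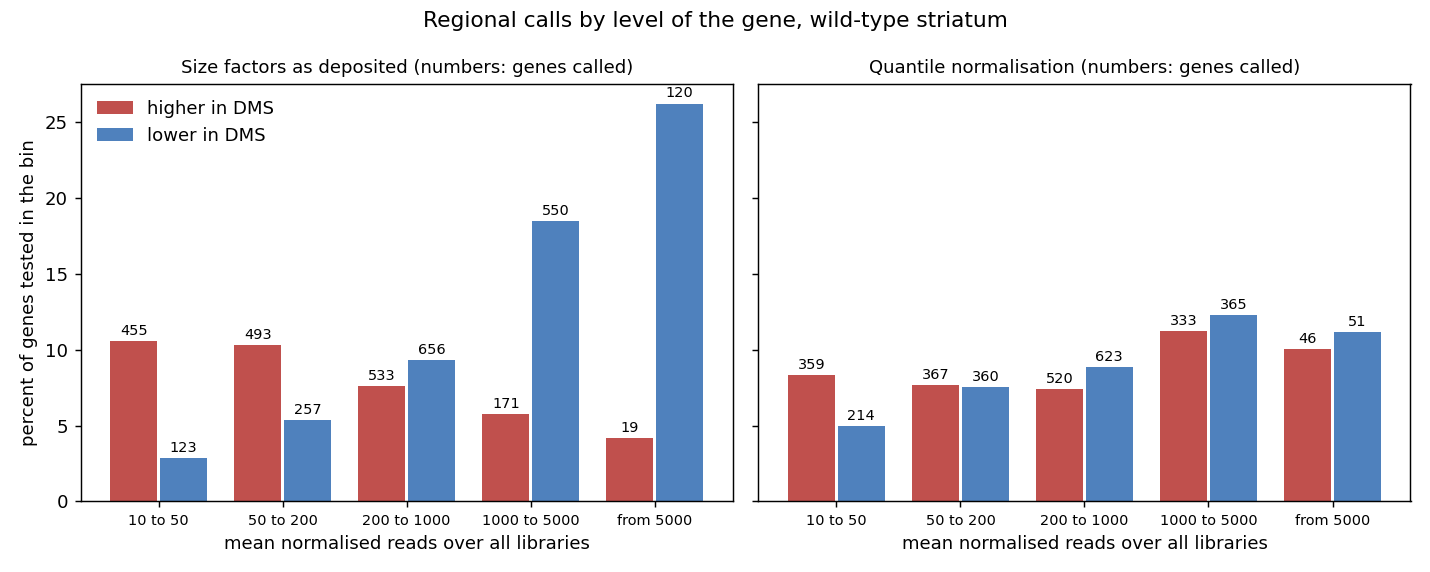
Percent of tested genes called higher (red) or lower (blue) in DMS at a limma adjusted p under 0.05, in 5 bins of mean normalised reads, with the deposited size factors (left) and after quantile normalisation (right); numbers over the bars are genes. In the bin from 5000, 120 genes are lower and 19 higher on the left, and 51 and 46 on the right.

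Projection neuron markers were lower in DMS with the deposited scaling. Of 16 shared markers, 0 were higher and 10 lower (median log2 -0.37), and the summed levels given above did not overlap between the regions. Rasd2, the striatal GTPase Rhes, ran from 8272 to 15615 (median 11506) normalised reads in DMS and from 15135 to 25802 (median 20722) in DLS (log2 -0.76 ± 0.10), and Pde10a, the phosphodiesterase of the same neurons, had a log2 difference of -0.66 ± 0.16. After quantile normalisation the counts were 0 higher and 2 lower; Rasd2 passed with both scalings and Pde10a did not pass with the second. With the ependymal factor gene Foxj1 as a covariate they were 0 higher and 4 lower. Fewer cells of a type and less RNA per cell cannot be told apart in these bulk samples, here and in every list below.

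Markers of the output pathways did not move as a block. Among 9 direct-pathway genes, 1 was higher and 3 lower. Pdyn, the dynorphin precursor gene, ran from 1817 to 2681 (median 2289.6) normalised reads in DMS and from 649.6 to 1193 (median 890.5) in DLS (log2 1.31 ± 0.09), so that all DMS libraries were above all DLS libraries. Lower in DMS, with overlapping groups, were Eya1, a transcriptional coactivator gene (log2 -1.37 ± 0.24), and Chrm4, the M4 muscarinic receptor gene (log2 -0.67 ± 0.09, Mdk overlapping at 18.1%). The D1 receptor gene itself, Drd1a, had a log2 difference of -0.35 ± 0.08 and did not pass after quantile normalisation. Of 6 indirect-pathway genes, 0 were higher and 2 lower. Drd2, the D2 receptor gene, ran from 4072 to 6482 (median 4827) in DMS and from 6538 to 9743 (median 7989) in DLS without overlap (log2 -0.64 ± 0.08), and Adora2a, the adenosine receptor gene of these neurons, had -0.71 ± 0.09. Penk, the enkephalin precursor gene and the most used marker of this pathway, had a log2 difference of -0.0057 ± 0.08 and did not pass (limma adjusted p = 0.975).

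Striosomes and matrix are the neurochemical compartments of the striatum. Of 7 striosome genes, 3 were higher and 2 lower: Pdyn, Lypd1 (log2 0.50 ± 0.07, Gpr39 overlapping at 92.3%) and Tshz1 (0.42 ± 0.13) were higher in DMS, whereas Kremen1 (-1.07 ± 0.13) and Rasgrp1 (-0.56 ± 0.13) were lower. Kremen1, a receptor of Dickkopf proteins, ran from 269.6 to 489.5 (median 406) normalised reads in DMS and from 551 to 927 (median 803) in DLS, with no overlap. The mu opioid receptor gene Oprm1, which defines striosomes, had a log2 difference of 0.50 ± 0.18 (Ipcef1 overlapping at 138%) that did not pass (limma adjusted p = 0.0535). Of 4 matrix genes, 2 were higher and 1 lower, with 1 higher without libraries 70 and 72 together or without any 1 of DLS libraries 26, 38, 44, 58, 70, 77, 86 and 89 or of DMS libraries 18, 24, 32, 34, 50, 65 and 88. Id4, an inhibitor of helix-loop-helix factors, was higher in DMS (1.34 ± 0.11, A330033J07Rik overlapping at 46.3%) and Rasgrp2, an exchange factor for Rap, was lower (-0.80 ± 0.06, Gm14965 overlapping at 26%). Neither compartment's markers shared a direction.

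Of 15 interneuron genes, 2 were higher and 5 lower, or 1 higher without any 1 of the libraries 77 of DLS and 24 and 76 of DMS. Pvalb (ENSMUSG00000005716, chromosome 15, 78021544 to 78036830), the marker of fast-spiking cells, ran from 44 to 103 (median 68.4) normalised reads in DMS and from 174 to 541 (median 323) in DLS, a log2 difference of -2.17 ± 0.20 (limma adjusted p = 5.22e-12). No DMS library reached the lowest DLS library, a condition of its choice by size. Cholinergic cells were represented by Chat, the acetylcholine-synthesising enzyme gene (log2 -0.78 ± 0.13). Trh (-0.87 ± 0.27) and the choline transporter gene Slc5a7 (-0.76 ± 0.14) were also lower and were named after their values were seen; Trh did not pass without DMS library 93. Lhx6, a factor of medial ganglionic eminence interneurons, was higher in DMS (0.45 ± 0.13). The interneuron peptide genes Sst (0.13 ± 0.18) and Npy (0.041 ± 0.21) did not pass (limma adjusted p = 0.693 and 0.925).

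Microglial and vascular markers gave no calls, oligodendrocyte markers gave them near the share over all genes, and precursor and astrocyte markers above it. Of 12 microglial and 15 endothelial and mural markers 0 passed with limma, edgeR or DESeq2, with median log2 differences of -0.019 and -0.0012; at an unadjusted p under 0.05 the counts were 0 and 3. Without DMS library 50 or DMS library 76, 1 endothelial and mural marker passed. Of 12 oligodendrocyte markers, 2 were higher and 0 lower: Mal (0.35 ± 0.10) and Cldn11 (0.31 ± 0.08), both of the myelin membrane. These calls were 16.7% of the list, against 17.3% over all genes. Of 7 precursor markers, 3 were higher and 0 lower, among them Sox10 (0.31 ± 0.09) and Olig2 (0.43 ± 0.10). In Foxp2hum/hum, 0 of the oligodendrocyte markers and 1 of the precursor markers passed. The astrocyte list was divided, with 4 higher and 3 lower among 14 markers. Gfap, the intermediate filament gene of fibrous astrocytes and of the subventricular zone, ran from 467 to 1123 (median 639.9) normalised reads in DMS and from 243 to 589 (median 348) in DLS (log2 0.92 ± 0.20, AL731670.1 overlapping at 569%). S100b, a calcium-binding protein gene, was lower in DMS (-0.78 ± 0.09, Dip2a overlapping at 114%). With Foxj1 as a covariate the log2 difference was 0.15 for Gfap and -0.86 for S100b, and S100b still passed. With that covariate Mal, Cldn11, Sox10, Olig2 and Gfap did not pass (limma adjusted p = 0.0637, 0.0707, 0.221, 0.522 and 0.901), and the counts were 0 higher and 1 lower for astrocyte and 0 higher and 0 lower for oligodendrocyte markers.

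**Figure D3:**
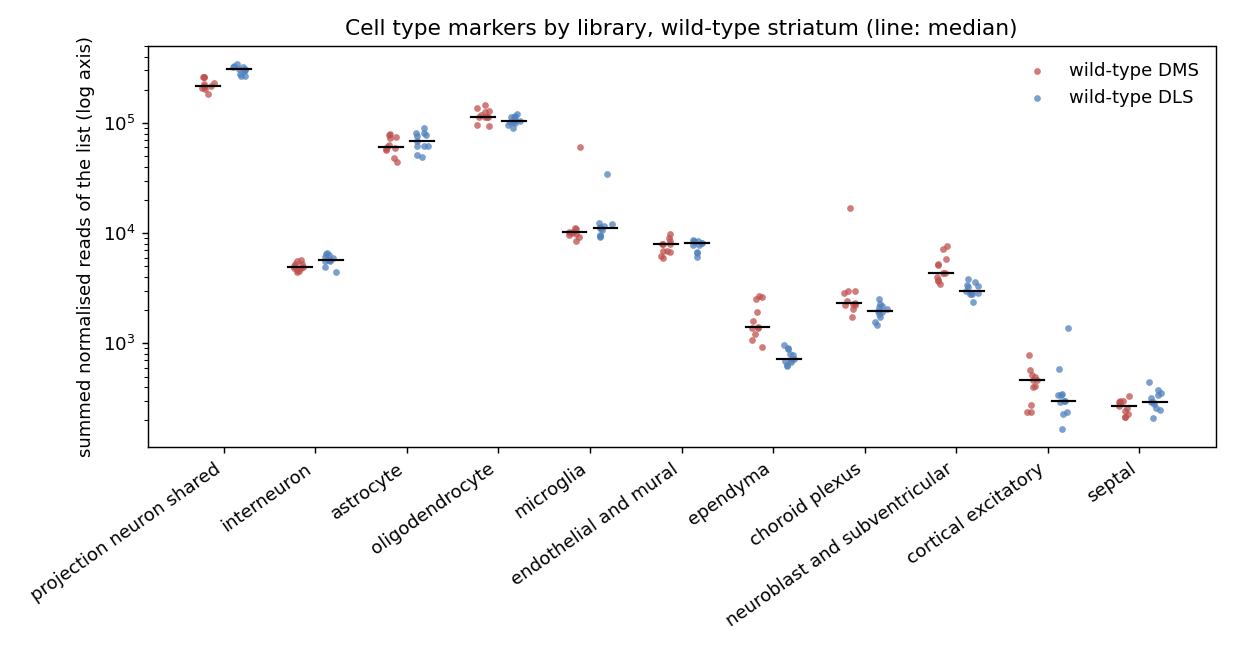
Summed normalised reads (log axis) of cell type marker lists in each wild-type library, with DMS in red, DLS in blue and a line at the median. Projection neuron sums do not overlap, whereas the ependyma sum has medians of 1405 in DMS and 724 in DLS and the single high points of microglia and choroid plexus are libraries 72, 70 and 18.

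Genes of the ventricular wall made up the most one-sided lists. Of 10 ependymal markers, 8 were higher and 0 lower in DMS (median log2 3.38). Ccdc153 (ENSMUSG00000070306, chromosome 9, 44048760 to 44055389), a coiled-coil protein gene of multiciliated cells, ran from 40.6 to 308 (median 143) normalised reads in DMS and from 0 to 2.15 (median 0) in DLS. Every DMS library held it and its level in DLS was at or near 0. Tmem212 (SNORA81.2 overlapping at 10.9%) and Dynlrb2, a dynein light chain gene, had log2 differences of 5.77 ± 0.39 and 4.66 ± 0.52. Foxj1, the master regulator of motile cilia, ran from 93.1 to 577 (median 185) in DMS and from 28.5 to 74.6 (median 65.5) in DLS (log2 1.95 ± 0.24). The spread of Foxj1 was wide in DMS, but its lowest DMS library exceeded its highest DLS library. Choroid plexus genes were less regular: 4 were higher and 0 lower of 9 tested, and Ttr ran from 0.847 to 9582 (median 40.8) in DMS and from 0 to 137 (median 1.09) in DLS, with overlapping groups.

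The subventricular list, made of genes of stem cells, dividing progenitors and migrating neuroblasts, had 12 higher and 1 lower of 17 (median log2 2.001). Thbs4 (ENSMUSG00000021702, chromosome 13, 93521545 to 93564773), a thrombospondin of subventricular astrocytes, ran from 164 to 568 (median 217) normalised reads in DMS and from 2.37 to 25.5 (median 14) in DLS (log2 4.38 ± 0.35). Proliferation was represented by Mki67, from 72.3 to 363 (median 149.9) in DMS and 5.93 to 31.4 (median 15) in DLS (log2 3.29 ± 0.34), and by Top2a, a topoisomerase gene (log2 3.07 ± 0.27). None of these DMS libraries overlapped the DLS libraries, which was a condition of choosing these genes by size. Igfbpl1, a binding protein gene of neuroblasts (3.05 ± 0.33), was similarly apart. Dlx6 was the exception and was lower in DMS (-0.44 ± 0.09, Dlx6os1 overlapping at 279%).

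Because these markers move with the region, the whole contrast was refitted with the log2 level of Foxj1 as a covariate. Over the 3377 genes the median log2 difference along the original direction went from 0.54 to 0.44, and its median SE from 0.125 to 0.197. The sign was the same for 3316 of them, and 748 of them passed in the same direction. Over all tested genes 798 passed, 368 higher and 430 lower in DMS. Of the 66 gene lists with any call, 62 had fewer calls in this fit and 16 had 0, whether or not the count is given beside the list. Crym kept a log2 difference of 3.56, Cpne6 3.07, Col6a1 3.71, Cnr1 -2.74, Gpr139 -4.43 and Robo3 -4.40, and all of them passed. Of the genes that define the ventricular wall, Ccdc153 had 5.14, Thbs4 3.40 and Mki67 2.38 and passed too. As lists, however, wall markers lost calls. The ependymal list, which holds Foxj1 itself, went from 8 to 3 higher, and its median log2 from 3.38 to 1.56. The subventricular list went from 12 to 8 higher, and its median log2 from 2.001 to 1.03. Choroid plexus genes went from 4 to 0 higher. Foxj1 itself differs by region, which enlarges the errors of such a fit, so a call lost in it does not show that the difference was absent.

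Of 26 motile cilia genes, 19 were higher and 0 lower in DMS (median log2 1.05). Rsph1, a radial spoke head gene, ran from 50.9 to 212 (median 109) normalised reads in DMS and from 2.16 to 25.7 (median 11.8) in DLS (log2 3.12 ± 0.32), without overlap. Ccdc40 and Rsph4a, further genes of the axoneme, had 2.01 ± 0.34 and 1.98 ± 0.32. Of 12 intraflagellar transport genes, which serve all cilia, 2 were higher and 1 lower, and 0 were higher without any 1 of the libraries 43 and 77 of DLS and 56 and 76 of DMS, without libraries 70 and 72 together, or after quantile normalisation. With Foxj1 as a covariate the motile cilia counts were 2 higher and 0 lower. RFX factors act on cilia genes through a motif whose core letters are GTTGCC. Of the 27 called ependymal and motile cilia genes, 14 had a RefSeq promoter entry (GRCm38.p6), with 17 windows of 250 bases upstream of a start site. The letters GTTGCC, searched on both strands, stood in 8 of these windows, in 8 genes, and in 10.43% of all 32851 windows of the table. Longer forms of the motif were searched as well and stood in 0 of the 17 windows. They stood in 0.2435% and 0.4505% of all windows. A match is a description of the letters and not a binding site. The windows of 3 genes among those with the largest differences are shown, 5′ to 3′ on the gene's strand, with GTTGCC in capitals: Ccdc153 (chr9:44240427-44240676, plus strand), Dynlrb2 (chr8:116504765-116505014, plus strand) and Fam183b (chr11:58801961-58802210, minus strand), the last with 2 matches.
Ccdc153: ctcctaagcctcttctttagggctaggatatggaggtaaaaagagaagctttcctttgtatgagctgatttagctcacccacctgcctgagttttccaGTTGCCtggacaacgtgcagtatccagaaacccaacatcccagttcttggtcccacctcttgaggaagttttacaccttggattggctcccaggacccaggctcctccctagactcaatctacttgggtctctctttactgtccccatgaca
Dynlrb2: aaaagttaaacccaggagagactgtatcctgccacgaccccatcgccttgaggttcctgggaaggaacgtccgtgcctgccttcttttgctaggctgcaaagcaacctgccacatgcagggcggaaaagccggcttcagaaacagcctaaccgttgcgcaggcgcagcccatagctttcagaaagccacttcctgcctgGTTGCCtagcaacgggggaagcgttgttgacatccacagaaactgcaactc
Fam183b: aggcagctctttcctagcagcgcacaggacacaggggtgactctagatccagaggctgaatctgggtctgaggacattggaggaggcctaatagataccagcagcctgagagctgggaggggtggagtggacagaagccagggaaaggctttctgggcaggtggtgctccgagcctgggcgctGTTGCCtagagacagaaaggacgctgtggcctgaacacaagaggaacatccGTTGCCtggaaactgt

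Among ion channels, which set the excitability of projection neurons and interneurons, calls on the DLS side prevailed. Of 72 potassium channel and auxiliary subunit genes, 8 were higher and 22 lower in DMS (median log2 -0.22), and the split after quantile normalisation was 9 higher and 22 lower. Kcnk2, the mechanosensitive leak channel TREK1, ran from 1788 to 2069 (median 1917) normalised reads in DMS and from 3919.7 to 4876 (median 4394) in DLS (log2 -1.19 ± 0.06). A second leak channel gene, Kcnk1, had a log2 difference of -0.90 ± 0.06, and in both the groups did not overlap. Kcnh7, an ether-a-go-go related channel gene, had -1.08 ± 0.14 (Gca overlapping at 36.9%). The A-type channel subunit gene Dpp10 went the other way, from 617 to 1338 (median 1026) in DMS and from 167 to 341 (median 214) in DLS (log2 2.16 ± 0.12), and so did Kcna5, a delayed rectifier gene (0.94 ± 0.18).

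Of 15 sodium and hyperpolarisation-activated (HCN) channel genes, 1 was higher and 7 lower (median log2 -0.44). Scn1a, the sodium channel of fast-spiking cells, ran from 468 to 840.2 (median 662) normalised reads in DMS and from 1019.9 to 1767 (median 1284) in DLS (log2 -1.07 ± 0.11) without overlap. Scn4b, whose product enables resurgent current, and Hcn2, a pacemaker channel gene, had log2 differences of -0.91 ± 0.12 and -0.66 ± 0.09. Of 24 calcium channel genes, 0 were higher and 7 lower (median log2 -0.30). Cacnb3, a cytoplasmic subunit gene, ran from 1393 to 1866 (median 1508) in DMS and from 2063 to 3152 (median 2596) in DLS (log2 -0.71 ± 0.07), and the T-type channel gene Cacna1i had -0.77 ± 0.19. In the TRP family of cation channels, Trpc7 was higher in DMS, from 53 to 192 (median 139) against 22.6 to 76.7 (median 46.5) in DLS (log2 1.54 ± 0.22). With Foxj1 as a covariate the counts were 3 higher and 8 lower for potassium, 0 higher and 3 lower for sodium and HCN, and 0 higher and 2 lower for calcium channels.

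Receptors for the classical transmitters had at most 1 member per list higher in DMS with all libraries and the deposited scaling. With 8.54% of all genes higher, such counts in short lists do not set these receptors apart. Of 10 acetylcholine receptor genes, 1 was higher and 6 lower (median log2 -0.51). Chrna7, the alpha7 nicotinic subunit gene, ran from 21.2 to 125 (median 70.6) normalised reads in DMS and from 55.9 to 312 (median 175) in DLS (log2 -1.27 ± 0.32). Of the muscarinic receptor genes, Chrm3 had -1.47 ± 0.38 and Chrm2, an autoreceptor of cholinergic cells, -1.10 ± 0.18 (9330158H04Rik overlapping at 25.9%). Chrna4, another nicotinic subunit gene, was higher in DMS (0.71 ± 0.19). The libraries of the regions overlapped in these genes. The split with Foxj1 as a covariate was 0 higher and 1 lower, and Chrna7, Chrm3, Chrm2 and Chrna4 did not pass (limma adjusted p = 0.195, 0.172, 0.34 and 0.323).

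Of 18 ionotropic glutamate receptor genes, 0 were higher and 6 lower (median log2 -0.17), including the kainate receptor gene Grik2 (-0.45 ± 0.09) and the NMDA receptor gene Grin2c (-0.45 ± 0.12). After quantile normalisation the split was 1 higher and 4 lower, and without library 70 or library 89 of DLS 2 genes were higher. The main AMPA receptor genes Gria1 (-0.072 ± 0.11) and Gria2 (-0.081 ± 0.10) did not pass (limma adjusted p = 0.707 and 0.627). GABA receptor genes went both ways: Gabra4, the subunit of extrasynaptic receptors in projection neurons, ran from 1879 to 3382 (median 2763) normalised reads in DMS and from 3450.2 to 4664 (median 4010.2) in DLS (log2 -0.58 ± 0.07), while Gabra5 had 0.77 ± 0.11 (Gm9962 overlapping at 53%). In each of these subunit genes the regions did not overlap.

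Among 10 dopamine receptor and monoamine genes, 1 was higher and 3 lower. Beside Drd2 and Drd1a, the vesicular monoamine transporter gene Slc18a2 was lower in DMS (-0.46 ± 0.14). Drd3, a receptor gene of ventral striatum that was named after its values were seen, was higher, from 7.17 to 38.9 (median 14) normalised reads in DMS and from 0.982 to 7.57 (median 5.45) in DLS (log2 1.51 ± 0.44). Of 7 adrenergic receptor genes 0 passed with limma, edgeR or DESeq2, and 1 had an unadjusted p under 0.05. Of 14 serotonin receptor genes, 1 was higher and 1 lower (median log2 0.35), or 2 higher without DMS library 65. Of 9 adenosine signalling genes, 0 were higher and 3 lower: Adora2a, Nt5e (-0.96 ± 0.16), the ectonucleotidase that makes adenosine, and the transporter gene Slc29a1 (-0.54 ± 0.10, Gm10210 overlapping at 23%). Receptor, producer and carrier were thus all lower in DMS.

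Of 11 endocannabinoid genes, 1 was higher and 3 lower. Beside Cnr1, Dagla, which makes 2-arachidonoylglycerol, ran from 397 to 1322 (median 895) normalised reads in DMS and from 973 to 2573 (median 1643) in DLS (log2 -1.03 ± 0.18), and Faah, which degrades anandamide, had -0.58 ± 0.12. Gpr55, a lysophospholipid receptor gene, was the member higher in DMS (0.89 ± 0.18, 4933407L21Rik overlapping at 122.5%). Neuropeptide precursor genes leaned to DMS, with 5 higher and 1 lower of 14, the lower one being Trh; 2 were lower without any 1 of DLS libraries 70, 77 and 89 or of DMS libraries 24, 32, 34 and 50. Besides Pdyn, Nts, the neurotensin gene, ran from 158 to 860.3 (median 321) in DMS and from 61.6 to 286 (median 175) in DLS (log2 1.03 ± 0.27), with some overlap of the groups. Tac1, the substance P precursor gene, did not pass (-0.40 ± 0.15, limma adjusted p = 0.0526). Of 28 peptide receptor genes, 7 were higher and 4 lower. The cholecystokinin receptor gene Cckbr ran from 102 to 176 (median 119) in DMS and from 10.9 to 73.5 (median 33) in DLS (log2 1.98 ± 0.24). Adcyap1r1, the receptor gene of the peptide PACAP, had 1.13 ± 0.15 and did not overlap between regions either. Npy1r, a neuropeptide Y receptor gene (-1.01 ± 0.16), and Oprd1, the delta opioid receptor gene (-0.92 ± 0.26), were lower in DMS. After quantile normalisation the peptide receptor split was 6 higher and 5 lower.

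Genes of intracellular signalling downstream of these receptors were called on both sides with the deposited scaling. Members were named from each direction by rule, so opposite pairs appear in any list with calls both ways. Rgs4 (ENSMUSG00000038530, chromosome 1, 171671608 to 171677773), a brake on Gq and Gi signals, ran from 6301 to 10346 (median 8292) normalised reads in DMS and from 19893 to 30200.5 (median 26203) in DLS (log2 -1.65 ± 0.09). Rgs14, a scaffold of G protein and MAP kinase signals, ran from 1038 to 1567 (median 1197) in DMS and from 416 to 873 (median 574) in DLS (log2 1.10 ± 0.09). Neither gene had overlapping groups. Of 17 RGS genes, 5 were higher and 3 lower, with 3 higher without any 1 of the DLS libraries 38, 44 and 51 or of the DMS libraries 65, 72 and 88. Of 27 G protein subunit genes, 7 were higher and 5 lower with the deposited scaling and 7 higher and 0 lower after quantile normalisation. Gnb4, a beta subunit gene, ran from 383 to 646 (median 524) in DMS and from 168 to 284 (median 212) in DLS (log2 1.30 ± 0.11), and Gnai1, an inhibitory alpha subunit gene, had 0.83 ± 0.09. The abundant subunit genes Gnal (-0.48 ± 0.10, Mppe1 overlapping at 29.1%) and Gnao1 (-0.44 ± 0.12) were lower with the deposited scaling and did not pass after quantile normalisation. Of 20 phosphodiesterase genes, 3 were higher and 3 lower with the deposited scaling, and 3 higher and 0 lower after quantile normalisation, where Pde1c (0.76 ± 0.14) and Pde9a (0.68 ± 0.14) were again higher. Adcy1, a calcium-stimulated adenylyl cyclase gene, had -0.86 ± 0.23.

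Of 35 phospholipase C, protein kinase C and related genes, 3 were higher and 11 lower, the same split as after quantile normalisation. Plcb4, a phospholipase downstream of Gq receptors, ran from 119.6 to 274 (median 194) normalised reads in DMS and from 305 to 475 (median 393) in DLS (log2 -0.97 ± 0.12), and Plch2 and the kinase gene Prkce had -0.94 ± 0.14 and -0.86 ± 0.13. Prkch, another protein kinase C gene, ran from 852 to 1202 (median 952) in DMS and from 348 to 573 (median 503) in DLS (log2 0.99 ± 0.09), the reverse order. Of 20 calmodulin-binding and calmodulin kinase genes, 2 were higher and 8 lower, or 1 higher and 4 lower after quantile normalisation. The higher count was 1 without any 1 of DLS libraries 14, 26, 38, 43, 44, 51, 86 and 89 or of DMS libraries 18, 32, 34, 50, 76 and 93. Nrgn (ENSMUSG00000053310, chromosome 9, 37352078 to 37360330), the neurogranin gene, ran from 7338 to 11902 (median 9318) in DMS and from 30383 to 41546 (median 36103) in DLS (log2 -1.91 ± 0.09), while Gap43, whose product binds calmodulin in growing axons through a like motif, was higher in DMS (0.46 ± 0.06). Of 8 calcium sensor genes, 3 were higher and 3 lower. Hpca, the hippocalcin gene, ran from 20016 to 25409 (median 22176) in DMS and from 36022 to 50648 (median 41995) in DLS (log2 -0.91 ± 0.08), and its relative Hpcal4 from 7990 to 18032 (median 12179.6) in DMS and from 3840.3 to 6366 (median 5065) in DLS (log2 1.31 ± 0.14). Hpca and Hpcal4, named from opposite directions by the rule, each had no overlap between the regions.

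Cell surface and guidance molecules were the next group. Of 20 ephrins and Eph receptors, 9 were higher and 1 lower (median log2 0.31). Epha8, a receptor gene of the A class, ran from 196 to 355 (median 272) normalised reads in DMS and from 68.7 to 145 (median 96.2) in DLS (log2 1.45 ± 0.15), whereas Ephb6, a kinase-dead receptor gene, ran from 501 to 640 (median 544) and from 930.2 to 1394 (median 1157) (log2 -1.05 ± 0.09). The groups did not overlap in either. Efnb1, a ligand gene, had 0.93 ± 0.20 and Ephb2 0.89 ± 0.22; with Foxj1 as a covariate these were 0.50 and 0.27 and did not pass. Sema7a (ENSMUSG00000038264, chromosome 9, 57787920 to 57810671), a membrane-anchored semaphorin, ran from 487 to 1093 (median 666) in DMS and from 1546 to 2958 (median 2729) in DLS (log2 -1.79 ± 0.12), and Plxnc1, the gene of its plexin receptor, from 308 to 538 (median 398) and from 134 to 284 (median 173) (log2 1.11 ± 0.11). Ligand and receptor were thus higher in opposite regions. Of 31 semaphorin and plexin genes, 4 were higher and 2 lower, with 8 higher without DLS library 89. The lower count was 1 without any 1 of DLS libraries 70, 77, 86 and 89 or of DMS libraries 34, 50 and 65, and after quantile normalisation the split was 3 higher and 1 lower. Of 17 slit, netrin and receptor genes, 4 were higher and 3 lower: the ligand genes Slit2 (1.30 ± 0.23), Slit1 (1.248 ± 0.24) and Ntn1 (0.64 ± 0.18) were higher, and the receptor genes Robo3 and Robo2 (-0.65 ± 0.12) lower in DMS.

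Of 28 cadherins, 6 were higher and 5 lower, with 3 lower without any 1 of the DLS libraries 70 and 89 or of the DMS libraries 34, 50, 56 and 76. Cdh9, a synaptic cadherin gene, ran from 105 to 275 (median 220.5) normalised reads in DMS and from 244 to 796 (median 539) in DLS (log2 -1.31 ± 0.15), and Pcdh10, a delta protocadherin gene, from 1605 to 3149.6 (median 2303) and from 767 to 1688 (median 1155) (log2 0.99 ± 0.13). Odz2 and Odz3, teneurin genes, had 0.92 ± 0.16 and 0.71 ± 0.18. Of 20 KCTD genes, whose products serve receptors and ubiquitin ligases, 4 were higher and 4 lower. Kctd8, whose product binds GABA-B receptors, ran from 213 to 534 (median 476) in DMS and from 95.6 to 159 (median 125) in DLS (log2 1.71 ± 0.15), and Kctd17 from 1889 to 2735 (median 2132) and from 4946 to 7206 (median 6269) (log2 -1.52 ± 0.07), both without overlap. Of 49 vesicle release genes, 4 were higher and 10 lower, or 3 higher and 6 lower after quantile normalisation. Slc17a8, a vesicular glutamate transporter gene of cholinergic interneurons, had -1.18 ± 0.16. The synaptotagmin genes split, with Syt10 from 58.3 to 128 (median 111) in DMS and from 5.93 to 28.6 (median 14.1) in DLS (log2 2.82 ± 0.34) and Syt2, a fast calcium sensor of release, lower in DMS (-0.997 ± 0.17).

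Of 16 retinoid signalling genes, 5 were higher and 4 lower. The synthesising enzyme Aldh1a1 ran from 49.7 to 205 (median 119.8) normalised reads in DMS and from 748 to 1088 (median 779.9) in DLS. The receptor gene Rxrg, from 2244 to 3431 (median 2745) in DMS and 5568 to 8687 (median 6394) in DLS, and the reductase gene Dhrs3 (-0.85 ± 0.10) were lower in DMS as well. Genes of transport were on the other side: Stra6, the membrane receptor of retinol-binding protein, ran from 158 to 297 (median 209.5) in DMS and from 48.6 to 95.4 (median 72.3) in DLS (log2 1.66 ± 0.23, Ccdc33 overlapping at 14.6%), and Rbp4, a carrier of retinol, had 0.95 ± 0.17. Stra6 and Rbp4 were thus higher in DMS, and Aldh1a1, Rxrg and Dhrs3 in DLS. The other members of the list are not reported here, so no direction is given for uptake or synthesis as a whole. With Foxj1 as a covariate the lower genes numbered 4 and the higher genes 2.

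Of 8 thyroid hormone genes, 3 were higher and 3 lower. Beside Crym, Thra, the receptor gene (0.35 ± 0.06, Nr1d1 overlapping at 50.6%), was higher in DMS. Dio2, the deiodinase that activates the hormone, ran from 649.6 to 1438 (median 818) normalised reads in DMS and from 1020.2 to 2234 (median 1627) in DLS (log2 -0.78 ± 0.20). Hr (-0.91 ± 0.18) and Klf9 (-0.82 ± 0.15), both known targets of the receptor, were lower in DMS too. Growth factor genes were mixed. Of 15 FGF ligands and receptors, 2 were higher and 5 lower (1 higher without DLS library 51, and 3 higher and 4 lower after quantile normalisation), and Fgf16 ran from 0 to 28.3 (median 4.72) in DMS and from 30.02 to 112 (median 49.8) in DLS (log2 -3.50 ± 0.42). Of 26 Wnt ligands, receptors and inhibitors, 9 were higher and 2 lower. Sfrp1, a secreted inhibitor, ran from 127 to 364 (median 187) in DMS and from 20.1 to 66.4 (median 36.3) in DLS (log2 2.32 ± 0.21), and the ligand gene Wnt2 had 1.28 ± 0.15. Wnt8b, in contrast, was lower in DMS, from 0 to 17.7 (median 6.14), and ran from 16.1 to 112 (median 45.7) in DLS (log2 -3.22 ± 0.41). Nrtn, the neurturin gene of the GDNF family, had -1.69 ± 0.24. Of 30 collagen genes, 6 were higher and 1 lower, and Col6a2, which joins Col6a1 in the collagen VI trimer, had 0.81 ± 0.22.

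**Figure D4:**
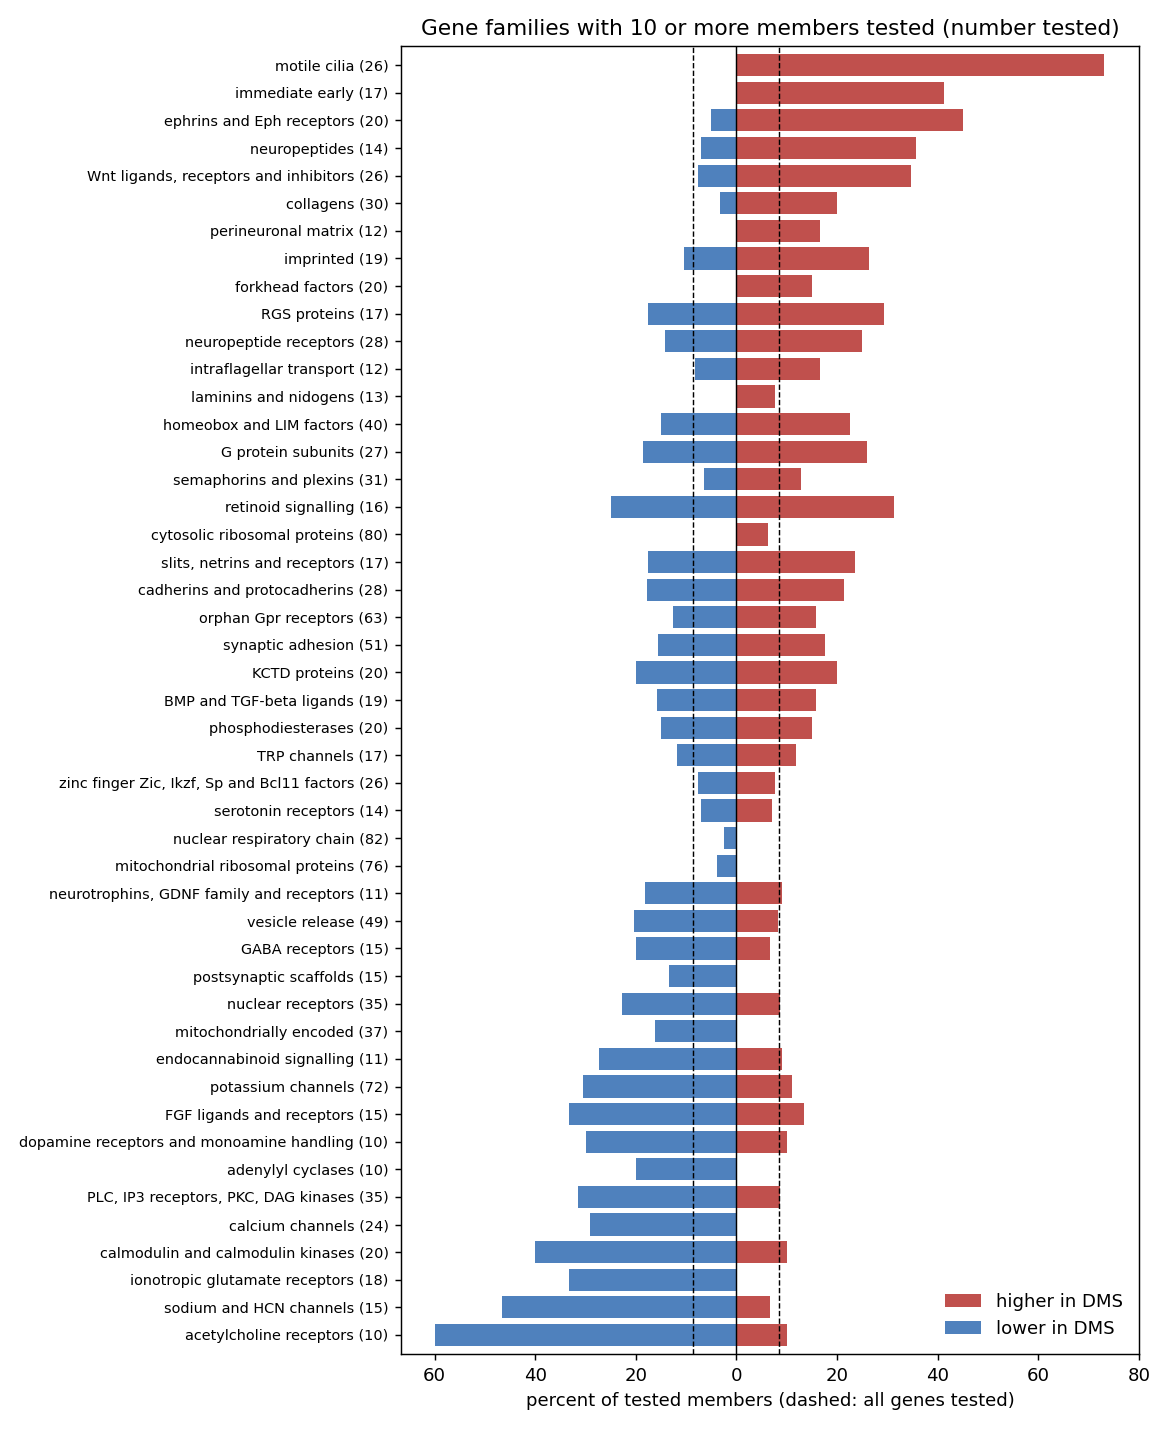
Percent of tested members called higher (red, right) or lower (blue, left) in DMS for gene families with 10 or more members tested, with the number tested in brackets and dashed lines at the shares over all tested genes (8.54% and 8.72%). Motile cilia genes stand at the top, with 19 of 26 higher, and acetylcholine receptor genes at the bottom, with 6 of 10 lower.

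Transcription factor genes were found on both sides. Of 40 homeobox and LIM genes, 9 were higher and 6 lower. Meis1, a TALE factor of the lateral ganglionic eminence, ran from 81.3 to 185 (median 122) normalised reads in DMS and from 194 to 401 (median 326) in DLS (log2 -1.36 ± 0.15), whereas Lmo1, a LIM-only factor, ran from 54.8 to 98.2 (median 69.8) and from 5.41 to 43.2 (median 23.2) (log2 1.65 ± 0.22). The interneuron and neuroblast factor genes Dlx1 (Dlx1as overlapping at 146%) and Dlx2 had 2.13 ± 0.20 and 1.65 ± 0.21, or 1.19 and 0.45 with Foxj1 as a covariate, where Dlx2 did not pass. Of 35 nuclear receptor genes, 3 were higher and 8 lower, with Esrrg (-0.82 ± 0.16) and Nr2f1 (-0.69 ± 0.13, A830082K12Rik overlapping at 68.8%) beside Rxrg on the DLS side. Of 20 forkhead genes, 3 were higher and 0 lower, or 5 higher without DMS library 34 and 5 after quantile normalisation (1 was lower without DMS library 72): Foxo6, from 214 to 369 (median 327) in DMS and 130.4 to 183 (median 157) in DLS (log2 0.97 ± 0.13), Foxj1, and the cell cycle factor gene Foxm1 (2.03 ± 0.34, 4933413G19Rik overlapping at 57.6%). Ikzf3, a lymphoid and neuronal zinc finger gene, was lower in DMS (-2.21 ± 0.37) and Sp8, a neuroblast factor gene, higher (2.85 ± 0.41).

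Immediate early genes are induced within minutes of neuronal activity, and of 17 such genes 7 were higher and 0 lower (median log2 0.43). Nr4a3 ran from 200.6 to 908 (median 520.1) normalised reads in DMS and from 40.9 to 412 (median 182) in DLS (log2 1.52 ± 0.39), Egr2 from 182 to 585 (median 357) and from 50.8 to 379.9 (median 145) (log2 1.41 ± 0.37), and Fosb from 149.9 to 577 (median 359) and from 43.5 to 209 (median 154) (log2 1.41 ± 0.29). Libraries varied widely within each region and the groups overlapped in all of them. The other members that passed, named after their values were seen, were Fos (1.402 ± 0.49), Btg2 (0.99 ± 0.26), Junb (0.79 ± 0.23) and Jun (0.40 ± 0.13, BC042782 overlapping at 23.4%), whereas Arc (0.33 ± 0.33) and Egr1 (-0.13 ± 0.22) did not (limma adjusted p = 0.559 and 0.748). With Foxj1 as a covariate 1 passed, and after quantile normalisation 5 did. CREB, a factor activated by calcium and cyclic AMP, binds a palindrome that holds the letters TGACGT. All 7 higher genes had RefSeq promoter entries, with 11 windows. Other patterns, which begin with CCAT and end with AGG, were searched as well and stood in 0 of the 11 windows. They stood in 0.06088% and 0.06697% of all windows. The letters TGACGT, on either strand, stood in 6 of the 11 windows, in Nr4a3, Egr2, Fos and Btg2, and in 6.469% of all windows; the full letters TGACGTCA stood in 1 of the 11, in Btg2, and in 1.546% of all. The windows of the gene with the largest difference and of 2 others are shown on the gene's strand, with TGACGT or its reverse complement in capitals: Nr4a3 (chr4:48045055-48045304, plus strand, 3 matches), Egr2 (chr10:67537619-67537868, plus strand) and Fos (chr12:85473640-85473889, plus strand).
Nr4a3: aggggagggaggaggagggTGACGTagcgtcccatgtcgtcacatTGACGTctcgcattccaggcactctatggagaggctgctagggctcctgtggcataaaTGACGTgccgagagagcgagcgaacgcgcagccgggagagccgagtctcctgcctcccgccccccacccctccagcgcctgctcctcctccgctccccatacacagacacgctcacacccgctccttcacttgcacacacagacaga
Egr2: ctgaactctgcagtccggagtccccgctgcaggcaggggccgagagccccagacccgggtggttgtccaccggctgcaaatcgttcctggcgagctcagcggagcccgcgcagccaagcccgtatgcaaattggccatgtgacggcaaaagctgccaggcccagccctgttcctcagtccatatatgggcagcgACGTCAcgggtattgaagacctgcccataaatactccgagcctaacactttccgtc
Fos: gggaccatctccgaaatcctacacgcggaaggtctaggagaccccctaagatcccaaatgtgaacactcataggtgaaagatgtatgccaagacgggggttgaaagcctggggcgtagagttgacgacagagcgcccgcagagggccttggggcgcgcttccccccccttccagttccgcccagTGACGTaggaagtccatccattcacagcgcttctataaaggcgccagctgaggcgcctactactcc

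Lists of basic cell function had counts of calls that varied with the setting. Of 80 cytosolic ribosomal protein genes, 5 were higher and 0 lower (median log2 0.27), Rpl10 by 0.41 ± 0.12. This count was sensitive to the libraries, the scaling and the covariates: it was 62 with the mitochondrial share of reads as a covariate, 0 with Foxj1 as a covariate, and 1 without any 1 of the DLS libraries 70, 77, 86 and 89 or of the DMS libraries 34, 50 and 56, 22 without DLS library 43, and 32 after quantile normalisation. Of 37 mitochondrially encoded genes, 0 were higher and 6 lower (median log2 -0.33), among them mt-Nd5, a subunit of complex I (-0.52 ± 0.14, mt-Nd6 overlapping at 39.2%). The count was 3 without any 1 of the DLS libraries 51 and 58 or of the DMS libraries 18, 24, 56 and 76, 10 without DMS library 50, and 2 after quantile normalisation, where mt-Nd5 did not pass. The share of reads from mitochondrially encoded genes ran from 11.9% to 26.3% (median 21.5%) in DMS, lowest in library 72, and from 18.2% to 29.3% (median 22.2%) in DLS. Of 82 nuclear genes of the respiratory chain, 0 were higher and 2 lower. The lower count was 1 without any 1 of DLS libraries 14, 43, 44, 51, 58 and 86 or of DMS libraries 24, 32, 34, 56, 65, 72 and 76, 4 without any 1 of DLS libraries 70 and 89, and 1 after quantile normalisation; without DLS library 51, 1 gene was higher.

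The regional genes were spread over the genome. The share of tested genes that differed was 20.8% on chromosome 3, the highest among the autosomes and chromosome X, and 12.5% on chromosome X, the lowest. Protein-coding genes comprised 1483 of the genes higher in DMS and 1517 of those lower, of 15247 tested, and large intergenic noncoding RNAs 57 and 47 of 795. The median gene span was 21.2 kb for genes higher in DMS, 25 kb for genes lower and 15.1 kb for genes not called.

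The same contrast was measured in the Foxp2hum/hum libraries, which are separate samples from the wild-type ones. There 1825 genes (9.33%) were higher and 1725 (8.82%) lower in DMS. Of the 3377 genes that differed in wild-type mice, 3343 had the same sign in Foxp2hum/hum, 2550 passed in the same direction and 0 in the opposite one. Crym ran from 2570.2 to 4135 (median 3489.8) normalised reads in Foxp2hum/hum DMS and from 232 to 515 (median 301) in DLS, and Cnr1 from 1125 to 1847 (median 1550.2) and from 9833 to 14503 (median 10902). Robo3 had a log2 difference of -5.64 ± 0.35, Gpr139 -5.002 ± 0.49, Cpne6 2.58 ± 0.14, Cpne9 -3.34 ± 0.23, Sema7a -1.79 ± 0.11 and Plxnc1 1.02 ± 0.11. Relatives named above from opposite directions kept their order: Rgs4 -1.60 ± 0.08 and Rgs14 0.97 ± 0.09, Hpca -0.90 ± 0.08 and Hpcal4 1.16 ± 0.13. Among lists, projection neuron markers had 0 higher and 10 lower of 16, acetylcholine receptor genes 1 higher and 6 lower of 10, potassium channel genes 7 higher and 24 lower of 72, motile cilia genes 17 higher and 0 lower of 26, ephrins and Eph receptors 8 higher and 1 lower of 20 and immediate early genes 7 higher and 0 lower of 17 in DMS. Of the genes described above, Cldn11, Mal, Olig2, Lhx6, Slc18a2 and Rpl10 did not pass in Foxp2hum/hum, and all others with a wild-type call did. The difference between the genotypes' regional contrasts was tested by an interaction term: 0 of 19561 genes (0.00%) passed with limma, edgeR or DESeq2, and 321 had an unadjusted limma p under 0.05.

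**Figure D5:**
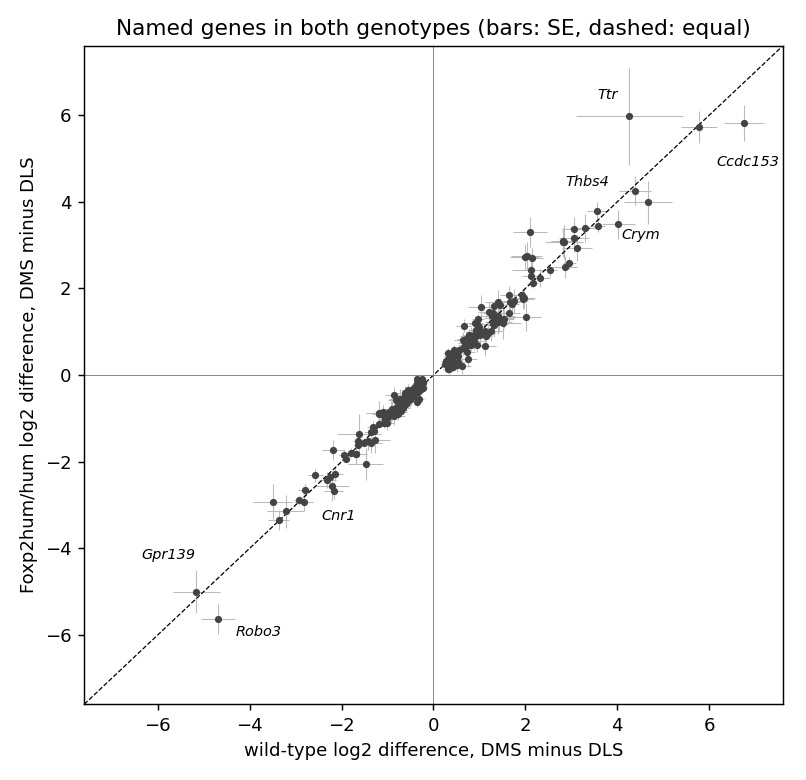
Log2 difference between DMS and DLS in wild-type (x axis) and in Foxp2hum/hum libraries (y axis) for the 254 named genes, with bars for the SE and a dashed line at equal values. Crym (3.59 and 3.44) and Cnr1 (-2.93 and -2.89) lie near the line, and no named gene has opposite signs.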

How the data were processed

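Messenger RNA was sequenced from laser-captured striatum in 46 libraries, 11 wild-type DMS, 11 wild-type DLS and 12 of each region from Foxp2hum/hum mice, and each library was assigned to its group by the header of the deposited table. Per the submitters' processing notes, reads were handled with TopHat 1.4.1, bedtools and DESeq on the mm9 build; the sources used here give neither counting options nor an annotation. The deposited unit is a signal: the deposited table is named as counts normalised with DESeq, and its values behave as the authors' gene counts scaled by 1 factor per library. Dividing by the smallest step of a library gave whole numbers for 100% of values (tolerance 0.01); in library 42, of Foxp2hum/hum, that step is close to 1. The count tests and the depths used these whole reads, and 25023 of 25259 genes were matched by identifier to GENCODE M1 for position and overlap. Pairs of libraries of 1 group differed by more than counting error (lowest chi-square per degree of freedom 9.84), so each was counted once.

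A gene entered the test if its mean was 10 or more. The model was limma 3.58.1 (R 4.3.3, eBayes with trend) on log2(value + 1), with 4 group means over all 46 libraries. P-values were two-sided, adjusted by Benjamini-Hochberg across 19561 genes and read at 0.05; log2 differences are DMS minus DLS with limma's SE, and the pseudocount of 1 understates the change of low genes. Genes were named by rule: Crym and Cnr1; the 12 genes per direction with the largest difference among passing genes whose higher group averaged 100 or more and whose regions did not overlap, leaving out clone symbols; and up to 3 passing members per list and direction whose higher group averaged 50 or more. The members, lists and rules were chosen with earlier results of these data known. Alternatives were pseudocounts of 0.5 and 5, a minimum mean of 50 or none, quantile and TMM normalisation, DESeq2 1.42.0 and edgeR 4.0.16 fitted to the recovered reads, array weights, wild-type libraries only, covariates (Ttr, Foxj1, mitochondrial share), leaving out each library, and, added after seeing the data, leaving out libraries 70 and 72. Promoter letters were searched in RefSeq windows of GRCm38.p6, and figures were drawn with matplotlib 3.10.9. Some genes that the rule names are not reported here.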

Additional observations from a re-analysis of the deposited data

How the results depend on the processing

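The number of genes that differed in wild-type mice ran from 3079 to 3558 when each library was left out in turn, with 1508 to 1787 higher, 1534 to 1771 lower and 710 to 765 past 2-fold; the count in Foxp2hum/hum ran from 3505 to 3656 and that of the interaction stayed at 0. It was 3069 with wild-type libraries only, 3293 with edgeR, 3590 with DESeq2, 3238 after quantile normalisation, 3366 with TMM, 4577 with array weights and 4752 with the mitochondrial share as a covariate. With Foxj1 as a covariate 798 genes passed, 368 higher and 430 lower and 334 past 2-fold, and 1126 in Foxp2hum/hum; with Ttr as a covariate the Foxp2hum/hum count was 2279. With a minimum mean of 50, 317 genes were past 2-fold in place of 742. The cause of these shifts was not tested, except that the higher minimum tests fewer genes. Of 254 named genes 228 passed without any single library, 234 after quantile normalisation and 247 with edgeR, and 126 of 253 with Foxj1 as a covariate, where Rgs3 (log2 -0.074) and Bmp6 (log2 -0.047) changed sign. No paired analysis was possible because the labels tie no library to an animal and the columns share no numbers between groups. Depth limits genes of few reads: the DMS medians of Wnt8b, Fgf16, Robo3 and Gpr139 were 6.14, 4.72, 4.41 and 7.40 normalised reads, and their fitted differences depend on the pseudocount.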

Other observations

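Some values divided the wild-type libraries within both regions. The Y-linked gene Ddx3y was under 100 normalised reads in 5 of 11 libraries of each region, with medians of 323 in DMS and 543 in DLS. The small nuclear RNA gene 7SK.5 stood at 7365 normalised reads in DMS library 72 and 3441 in DLS library 70, against medians of 83.9 in DMS and 106 in DLS.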
